A study of Danio rerio with 3 samples.

Results

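The genes described here encode the proteins of the cytosolic ribosome. They were taken by gene symbol from the platform's probe table: every symbol that starts with rpl or rps followed by a digit, plus rpsa and the rplp genes, without the ribosomal S6 kinases (rps6k). This gave 74 of the 14462 genes on the array, 45 of the large and 29 of the small subunit. A log2 ratio was present in all 3 samples for 72 of them (43 large, 29 small), among 5904 such genes in all. The rule itself used symbols and no measured value, although it was set with earlier results of these data known.

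The samples were whole zebrafish (Danio rerio) embryos of 48 hpf (hours post fertilization). The exposed embryos were kept from 24 hpf for 24 h with Aroclor 1254, a commercial mixture of polychlorinated biphenyls, at 71.9 mg/L, and the control embryos in medium at 28.5 °C. Strain and genotype are not given in the labels. Each of the 3 samples, labelled biological replicates, set total RNA of exposed against control embryos on a two-channel array with dye swaps, so that all 3 form 1 group and each value is already a contrast. Whether they came from separate clutches is not said, and p-values here measure only how far these 3 samples spread, which may be technical. Which condition is the numerator of the ratio is not stated, although the labels list control as the first channel and exposed as the second. Over all genes cyp1a had the highest mean, 7.90, and the highest value in replicates 2 and 3, 8.61 and 8.02. In replicate 1 the highest was tcap, at 8.39. What these values say of the numerator was not tested. "Positive" and "negative" therefore describe the deposited value and not a direction of exposure.

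The cytosolic ribosome translates nuclear messenger RNA. Its small subunit reads the message and its large subunit joins the amino acids. Most ribosomal proteins are needed in about equal amounts. In vertebrates the messages of ribosomal proteins share a pyrimidine-rich start through which growth signals control their translation. Loss of single ribosomal proteins in zebrafish and in people can impair red cell production and activate p53, and in human cells some free ribosomal proteins bind the p53 inhibitor MDM2.

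The deposited table held 45219 rows, of which 12735, 10487 and 12062 had a value in replicates 1, 2 and 3. The standard deviation over these rows was 0.87, 1.00 and 0.69, so replicate 2 had the fewest values and the widest spread. Row numbers were paired with probes by a grid numbering inferred from these data, and every gene name rests on it. Of 31 marker genes of 9 embryonic tissues and cell types, 25 were on the array and 23 had a value in all samples, with at least 1 for each. The 2 endothelial markers kdrl and cdh5 were on the array without a value in all samples.

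Ribosomal protein probes had a value more often than those of the whole array. Of 121 probes, 103 had a value in at least 1 sample (85.1%, against 45.4% of all 21060 probes with a gene). This was not particular to them. The share was 85.3% for translation factors, 80.0% for mitochondrial ribosomal proteins, 81.25% for ribosome assembly factors and 88.9% for ribosome partners, lists described below. Of the 104 probes with a RefSeq mRNA accession, 99 had a value in at least 1 sample (95.2%, against 52.7% of 15770 such probes over the array). Each of these 99 had a value in all 3 samples, as did 6735 of the 15770 over the array. Of the 17 probes with another accession, mostly expressed sequence tags, 4 had a value (23.5%, against 23.8% of 5290). The genes without a value were rpl31, with 2 probes, and rpl37, with 1 probe.

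In limma no ribosomal protein gene passed the adjusted threshold of 0.05 (0 of 72, against 1 of 5904 genes or 0.0169%). The lowest adjusted p among them was 0.189. At an unadjusted limma p of 0.05, 10 were positive (13.9%, against 7.67% of all genes) and 1 was negative (1.39%, against 8.43%). The ordinary statistic called 0 of all 5904 genes, so its 0 among ribosomal protein genes does not set them apart. At its unadjusted p of 0.05 there were 5 of them (6.94%, against 10.2% of all genes). None of the 102 ribosomal protein rows with a value in all samples passed over the 10200 such rows, of which 0.0686% did.

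The replicates differed in the level of these genes. The median ratio was 0.07 in replicate 1, 0.89 in replicate 2 and -0.11 in replicate 3, whereas the median of all genes was -0.01, -0.03 and -0.05. In replicate 2, 69 of 72 genes were positive (95.8%, against 48.8% of all genes). In replicates 1 and 3 this held for 39 and 28 (54.2% and 38.9%, against 49.4% and 45.7% of all genes). For 62 of 72 genes replicate 2 held the highest of the 3 values (86.1%, against 39.0% of all genes). The difference of replicate 2 from the mean of the other replicates had a median of 0.93 (quartiles 0.64 and 1.17) and was above 0 for 65 genes. Over all genes its median was 0.02, and it was above 0 for 51.3%. Each replicate is 1 sample, so these differences were not tested.

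The same sign in all 3 samples was found for 20 of 72 genes, all positive. This was 27.8%, against 19.7% of all genes that were positive and 23.1% that were negative in all samples. The commonest pattern, in 26 genes (36.1%, against 12.6% of all genes), was positive in replicate 2 and negative in the other replicates. A further 18 genes were positive in replicates 1 and 2 and negative in replicate 3. A ratio of at least 1.5-fold in 1 direction in all samples was found for rpl18 and rpl7, both positive (2.78%, against 2.63% of all genes), and for none in the negative direction (2.71% of all genes). Over the means of 3 replicates, 62 genes were positive (86.1%, against 47.3% of all genes) and 10 negative. The median was 0.26, against -0.03 for all genes. Without replicate 2 the median was -0.04, and 27 of the 62 positive means became negative. In whole embryos, a change in the number of cells of a type and a change in RNA per cell cannot be told apart in these values.

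**Figure D1:**
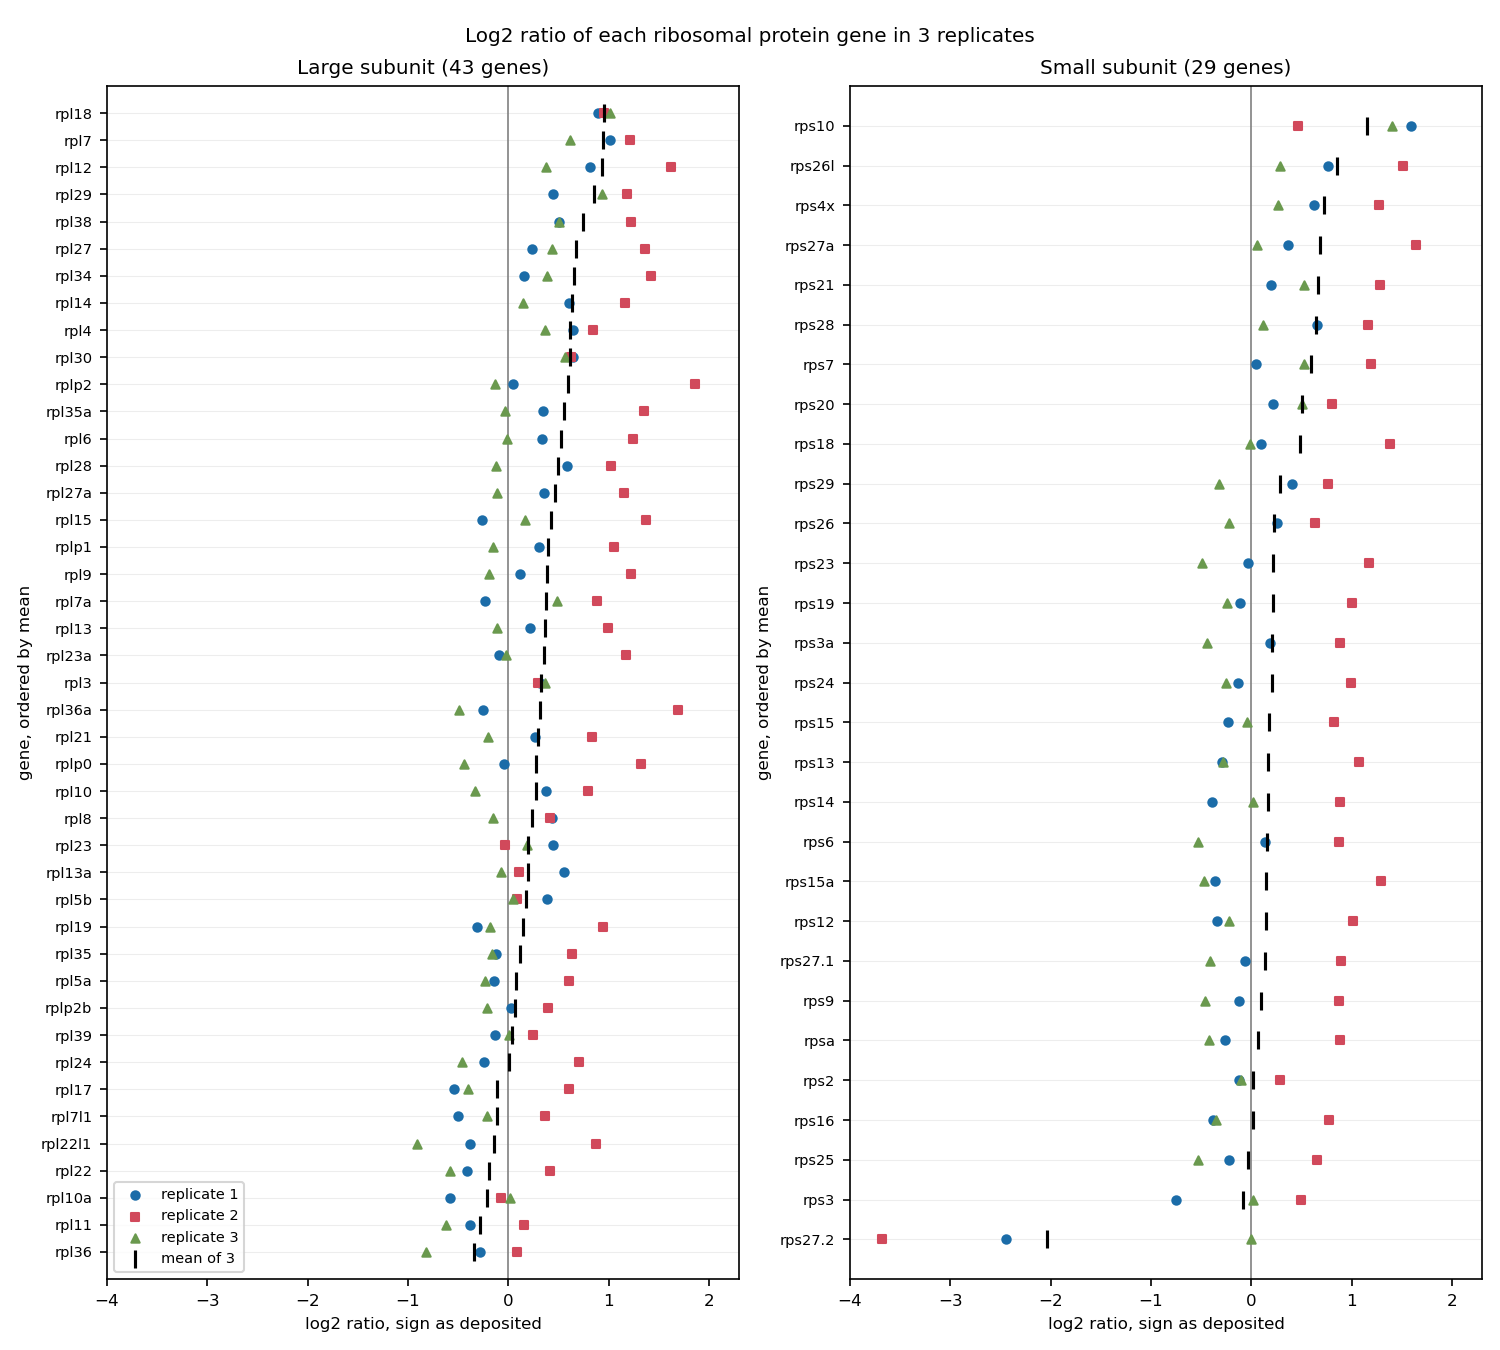
Log2 ratio (x axis, sign as deposited) of the 43 large and 29 small subunit genes with a value in all samples (y axis, ordered by mean). Each symbol is 1 replicate and the vertical bar the mean of 3; replicate 2 lies to the right of the others for 62 of 72 genes, and rps27.2 lies far to the left in replicates 1 and 2.

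Some tissue markers also stood apart in replicate 2. The 3 red cell markers had medians of 0.58, 1.71 and -0.42 in replicates 1, 2 and 3, and the 3 heart markers -0.51, 0.98 and 0.13, and all 6 were highest in replicate 2. The 4 skeletal muscle markers had medians of 0.04, -0.72 and 0.06, and 3 of them were lowest in replicate 2. The exception was tnnt3b, at -1.77, -1.62 and -1.15. The 4 markers of the nervous system had medians of -0.12, -0.82 and -0.34, but they were split. In replicate 2, tuba1c and stmn1b were lowest, at -1.90 and -1.28, elavl3 was highest, at 0.11, and gfap lay between its other values, at -0.35. In the lens the 2 markers had medians of 1.21, -0.83 and -1.18. In the epidermis and in the liver and yolk layer the markers lay on opposite sides of 0 in replicate 2, at 1.08 for krt4 and -0.75 for krt5, and at 0.61 for tfa and -0.37 for fgb. There the endothelial marker cldn5b stood at 0.34, and the pigment cell markers dct and tyrp1b at -0.02 and -0.43. Their part in the ribosomal values was not tested.

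The question put to the 2 subunits was whether they moved alike. The large subunit had a median of 0.22, 0.88 and -0.11 in replicates 1, 2 and 3, and the small subunit one of -0.06, 0.89 and -0.23. Large minus small was thus 0.28, -0.01 and 0.11, with an SD over replicates of 0.15, so the subunits lay together in replicate 2 and apart by varying amounts in the others. Over the means of 3 replicates the medians were 0.33 and 0.20, a difference of 0.12, which is smaller than that SD. Of the large subunit 12 of 43 genes were positive in all samples (27.9%), and of the small subunit 8 of 29 (27.6%). The pattern with replicate 2 alone positive was seen in 13 of 43 (30.2%) and 13 of 29 (44.8%). No p is given, because a score over chosen genes was not tested.

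Within the large subunit, the highest mean was that of rpl18. It stood at 0.90, 0.96 and 1.02 in replicates 1, 2 and 3 (0.96 ± 0.06, SD, n = 3; adjusted p = 0.189, limma), so that replicate 2 did not stand apart. This even level is an average of unlike rows: one read 1.5, 0.91 and 1.78, and the other 0.29, 1.00 and 0.25. Without replicate 2 the first of these rows passed over all rows, at a mean of 1.64 (adjusted p = 0.0413, limma on the other 2 replicates). In that fit 186 of 11852 rows passed (1.57%), and 1 of 103 ribosomal protein rows (0.971%). In people RPL18 is among the genes mutated in Diamond-Blackfan anaemia, an inherited failure of red cell production.

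For rpl7 the values were 1.01, 1.22 and 0.61 (0.95 ± 0.31, SD, n = 3; adjusted p = 0.195, limma), all well above 0. The gene rpl29, for a ribosomal protein that bacteria lack, stood at 0.45, 1.19 and 0.93 (mean 0.86 ± 0.37). Loss of RPL38 in the mouse disturbs translation of Hox messages and the pattern of the skeleton. In zebrafish embryos here, rpl38 stood at 0.50, 1.22 and 0.51 (mean 0.75 ± 0.42), with replicates 1 and 3 almost equal. The genes rpl30 (0.64, 0.63 and 0.57, mean 0.61 ± 0.04) and rpl3 (0.32, 0.29 and 0.37, mean 0.33 ± 0.04) were more even still than rpl18. The level of rpl3 averages rows that were each less even, at 0.31, 0.38 and 0.14 and at 0.33, 0.21 and 0.60. Their means, 0.28 and 0.38, lay closer together than those of the rpl18 rows, 1.40 and 0.51. For rpl30 there was 1 row. The rpl3 protein lies near the site where peptide bonds form. The adjusted p of rpl29, rpl38, rpl30 and rpl3 in limma was 0.219, 0.258, 0.275 and 0.495. The other large subunit genes that were positive in all samples were rpl12, rpl27, rpl34, rpl14, rpl4 and rpl5b, with means from 0.17 for rpl5b to 0.93 for rpl12.

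The stalk of the large subunit recruits and activates the translation factors that hydrolyse GTP. It is built on rplp0, which carries the acidic proteins rplp1 and rplp2 and lies next to rpl12. For rplp0 the values were -0.04, 1.32 and -0.44, and for rplp1 they were 0.31, 1.05 and -0.16. The widest of the stalk genes was rplp2, at 0.05, 1.86 and -0.13, the highest value of all ribosomal protein genes in replicate 2. Its paralog rplp2b stood at 0.02, 0.39 and -0.22, so as gene values both were highest in replicate 2, by differing amounts. The rows of rplp2b were unlike. One read 0.06, -0.33 and 0.12, lowest in replicate 2, and the other -0.01, 1.11 and -0.55. The stalk base gene rpl12 was positive in each replicate, at 0.81, 1.62 and 0.37 (0.93 ± 0.63, SD, n = 3; adjusted p = 0.237, limma). The means of the others were 0.28 ± 0.93, 0.40 ± 0.61, 0.59 ± 1.1 and 0.07 ± 0.31 for rplp0, rplp1, rplp2 and rplp2b, each SD larger than its mean.

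The proteins of rpl5a, rpl5b and rpl11 enter the ribosome together with the smallest of its large subunit RNAs, and in human cells the free complex binds MDM2. The gene rpl11 read -0.38, 0.15 and -0.62 (-0.28 ± 0.40, SD, n = 3; adjusted p = 0.604, limma), with replicates 1 and 3 below 0. The paralogs rpl5a and rpl5b read -0.14, 0.61 and -0.24, and 0.39, 0.09 and 0.04. The highest sample was replicate 2 for rpl5a and replicate 1 for rpl5b. RPL23, another MDM2 binder in human cells, had its zebrafish gene rpl23 at 0.44, -0.03 and 0.19, with replicate 2 the lowest.

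Proteins that line the tunnel through which the new peptide leaves include rpl4, rpl17 and rpl39. They differed from each other: rpl4 was positive in each replicate (0.64, 0.84 and 0.36, mean 0.62 ± 0.24 over 4 rows, adjusted p = 0.296 in limma), rpl17 read -0.54, 0.61 and -0.40, and rpl39 stayed near 0 at -0.13, 0.25 and 0.01. At the tunnel exit, rpl23a read -0.09, 1.18 and -0.02 and rpl35 read -0.13, 0.63 and -0.16, both near or below 0 outside replicate 2. The protein of rpl36a lies at the exit site for spent transfer RNA. Its values of -0.26, 1.69 and -0.50 gave the second widest range of all 72 genes, after rps27.2.

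The lowest large subunit means were those of rpl36 (-0.28, 0.09 and -0.82, mean -0.34 ± 0.46), rpl11, rpl10a (-0.58, -0.08 and 0.01, mean -0.22 ± 0.32), rpl22 (-0.41, 0.41 and -0.58, mean -0.19 ± 0.53) and rpl22l1 (-0.39, 0.87 and -0.91, mean -0.14 ± 0.91). In zebrafish, Rpl22 and its paralog Rpl22l1 have been described with opposing roles in the emergence of blood stem cells. Here both had the same order of replicates, with replicate 2 alone above 0. The paralog rpl7l1 read -0.50, 0.36 and -0.21, below rpl7 in each replicate. The adjusted p of rpl36, rpl10a, rpl22, rpl22l1 and rpl7l1 in limma lay between 0.545 and 0.865.

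In the small subunit the highest mean was that of rps10, whose protein lies near the entry of the message and is tagged with ubiquitin on stalled ribosomes in human cells. It read 1.59, 0.47 and 1.41 (1.16 ± 0.60, SD, n = 3; adjusted p = 0.195, limma). In contrast to most of the genes, its lowest value was in replicate 2, and it was the highest of all ribosomal protein genes in replicates 1 and 3. With 1 row, it could not be checked against another probe. The gene rps20, whose protein is also tagged on stalled ribosomes, read 0.22, 0.81 and 0.51 (0.51 ± 0.30, SD, n = 3; adjusted p = 0.359, limma).

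The other small subunit genes that were positive in all samples were rps26l, rps4x, rps27a, rps21, rps28 and rps7, and each was highest in replicate 2. The protein of rps27a is made as a fusion with ubiquitin. Its values were 0.37, 1.64 and 0.05 (0.69 ± 0.84, SD, n = 3; adjusted p = 0.376, limma), so its mean came largely from replicate 2. For rps4x, whose human counterpart lies on the X chromosome, the values were 0.63, 1.27 and 0.27 (0.72 ± 0.51, SD, n = 3; adjusted p = 0.289, limma). Means of rps21, rps28 and rps7 were 0.67, 0.65 and 0.59.

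The gene rps23, for a protein of the decoding site, read -0.03, 1.17 and -0.49. The entry proteins rps2 (-0.12, 0.28 and -0.10) and rps3 (-0.75, 0.50 and 0.02) were both lower in replicate 2 than the small subunit median of 0.89. The gene rps16, whose protein touches the peptide-bearing transfer RNA, read -0.38, 0.78 and -0.35. For rps6, the substrate of S6 kinase in growth signalling, the values were 0.13, 0.87 and -0.53, and for rpsa, also known as the laminin receptor, -0.27, 0.89 and -0.42. The gene rps25 read -0.22, 0.66 and -0.53, and its mean of -0.03 was one of 3 negative means in the small subunit, with rps3 and rps27.2.

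The gene rps27.2 differed most from the rest. It read -2.44, -3.68 and 0.00 in replicates 1, 2 and 3 (-2.04 ± 1.87, SD, n = 3; adjusted p = 0.223, limma), so that replicates 1 and 2 were far below 0 and replicate 3 at 0. In replicate 2 the next lowest ribosomal protein gene, rpl10a, stood at -0.08. Its measured rows agreed: one read -2.23, -3.70 and 0.12, and the other -2.65, -3.65 and -0.12. Without replicate 3 its mean was -3.06 and it was the 1 ribosomal protein gene that passed over all genes (adjusted p = 0.0437, limma on replicates 1 and 2), a fit in which 20 of 5963 genes passed (0.335%). The paralog rps27.1 read -0.06, 0.89 and -0.41, close to the other small subunit genes. Probes of near-identical paralogs can share signal, and how far these do was not tested.

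Further paralogs were rps26 and rps26l, whose protein lies at the exit of the message. The gene rps26 read 0.26, 0.64 and -0.23 and rps26l 0.76, 1.52 and 0.29, with rps26l higher in each replicate. The rows of rps26l were unlike, one at 1.68, 1.71 and 0.96 and the other at -0.16, 1.32 and -0.38. The first was positive throughout, and the other in replicate 2 alone.

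On a list of genes mutated in Diamond-Blackfan anaemia in people, which does not hold all such genes, 12 zebrafish genes had a value, counting both rpl5 paralogs. Of these, rpl18, rps10, rps7 and rpl5b were positive in all samples (33.3%, against 27.8% of the 72 ribosomal protein genes and 19.7% of all genes). None was negative in all samples (against 0% of the 72 and 23.1% of all genes). The gene rps19, the first to be linked to the disease, read -0.12, 1.01 and -0.24 (0.22 ± 0.69, SD, n = 3; adjusted p = 0.750, limma) over 5 rows. The genes rps24 (-0.13, 0.99 and -0.25), rpl35a (0.35, 1.36 and -0.03) and rpl15 (-0.26, 1.38 and 0.16) were likewise highest in replicate 2. The other 4 were rps26, rpl35, rpl5a and rpl11, described above. Further genes linked to the disease were not on the list, among them rpl27, rps28, rps29, rps15a and the rps27 paralogs. Of these 6, rpl27 and rps28 were positive in all samples (33.3%) and none was negative in all. The gene rps29 read 0.41, 0.77 and -0.32, and rps15a read -0.36, 1.29 and -0.48, both highest in replicate 2.

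Several rows of 1 gene gave a view of the spread within an array. This spread can hold differences between probes as well as error, since rows of a gene such as rpl10a came from different sequences. Of the 72 genes, 23 had more than 1 row with a value in all samples (53 rows). The median SD between rows of a gene was 0.31, 0.13 and 0.34 in replicates 1, 2 and 3. For the same genes the median SD between replicates was 0.58, on values already averaged over rows, so these SDs are unlike measures. In 15 of the 23 genes every row was highest in replicate 2. The row means lay within 0.5 of each other in 17 genes and had opposite signs in 5, namely rpl10a, rpl36, rps19, rpl7l1 and rplp2b.

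The rows of rpl10a were farthest apart. The row from a RefSeq mRNA read 0.28, 1.12 and 0.16, and the row from an expressed sequence tag -1.44, -1.27 and -0.13, so the negative mean of the gene rests on the second row. A row of rpl36 read -0.24, 1.18 and -0.26 and another -0.62, -0.01 and -1.29, both highest in replicate 2. The remaining row read 0.01, -0.92 and -0.92, highest in replicate 1. The 5 rows of rps19 lay between 0.58 and 1.31 in replicate 2, between -0.53 and 0.36 in replicate 1 and between -0.63 and -0.01 in replicate 3, so replicate 2 did not overlap the others. The 4 rows of rpl4 were all positive in each replicate, from 0.09 to 1.28. The second row of rps12 had no value in replicate 2, so its value of 1.01 there rests on 1 row.

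**Figure D2:**
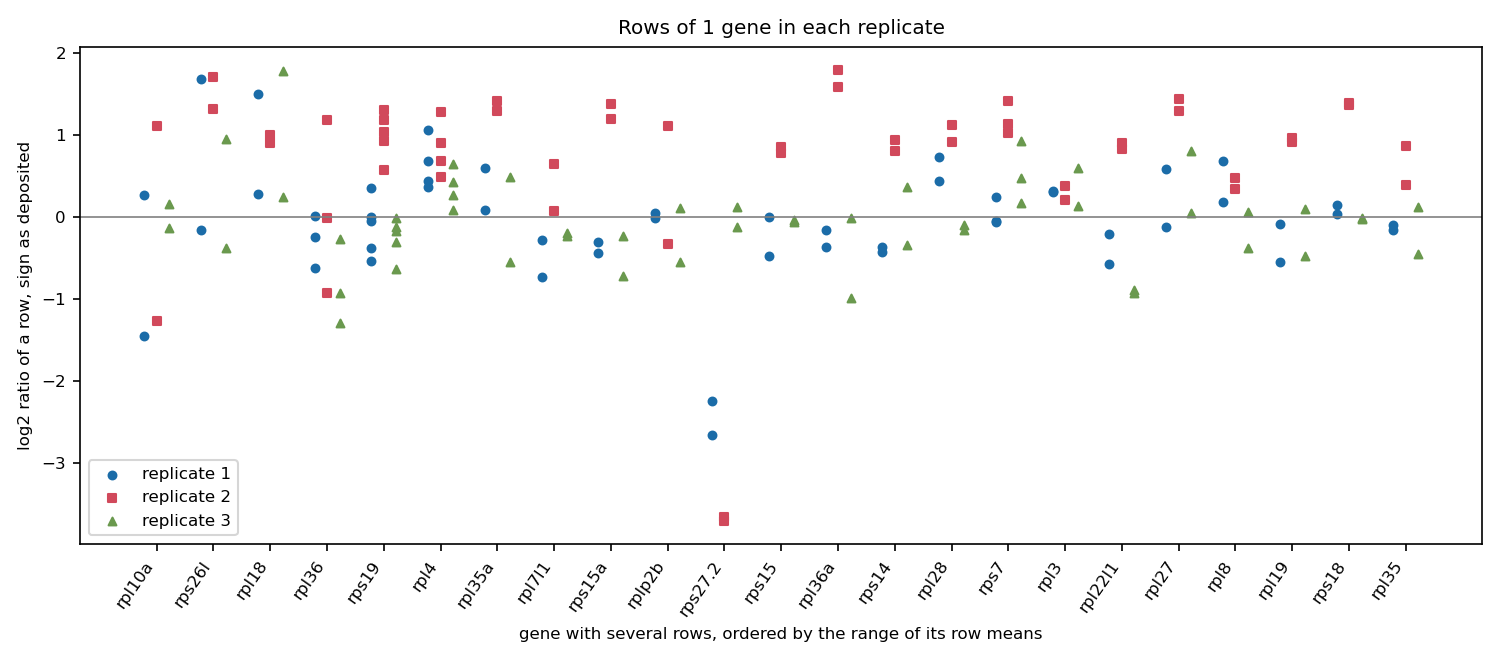
Log2 ratio (y axis, sign as deposited) of each row of the 23 genes with more than 1 row in all samples (x axis, ordered by the range of row means). Each symbol is 1 row in 1 replicate; the rows of rpl10a lie farthest apart, and both rows of rps27.2 lie below -2 in replicates 1 and 2 and near 0 in replicate 3.

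The likeness of the replicates was described across the 72 genes, which share the arrays and are not independent replicates. Replicate 1 had a Pearson r of 0.53 with replicate 3 and of 0.55 with replicate 2, and the r of replicates 2 and 3 was 0.09. Without rps27.2 these values became 0.66, 0.20 and 0.16, so the one for replicates 1 and 2 rests on that gene. Over all other genes of the array they were 0.47, 0.29 and 0.30. With the median of the 72 genes subtracted in each replicate, 17 genes lay above it in all 3 samples (23.6%) and 13 below it (18.1%). Over all genes, set against their own median, the shares were 21.5% and 21.2%, so these counts lay near those of the array. Of the 17, 11 were among the 43 large subunit genes (rpl12, rpl14, rpl18, rpl27, rpl27a, rpl29, rpl34, rpl35a, rpl38, rpl6 and rpl7). The other 6 were among the 29 small subunit genes (rps18, rps21, rps26l, rps27a, rps28 and rps4x). Of the 13, 10 were of the 43 large subunit genes, among them rpl11, rpl5a, rpl22, rpl22l1, rpl7l1, rpl36 and rplp2b. The other 3 were of the 29 small subunit genes (rps16, rps25 and rps9).

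**Figure D3:**
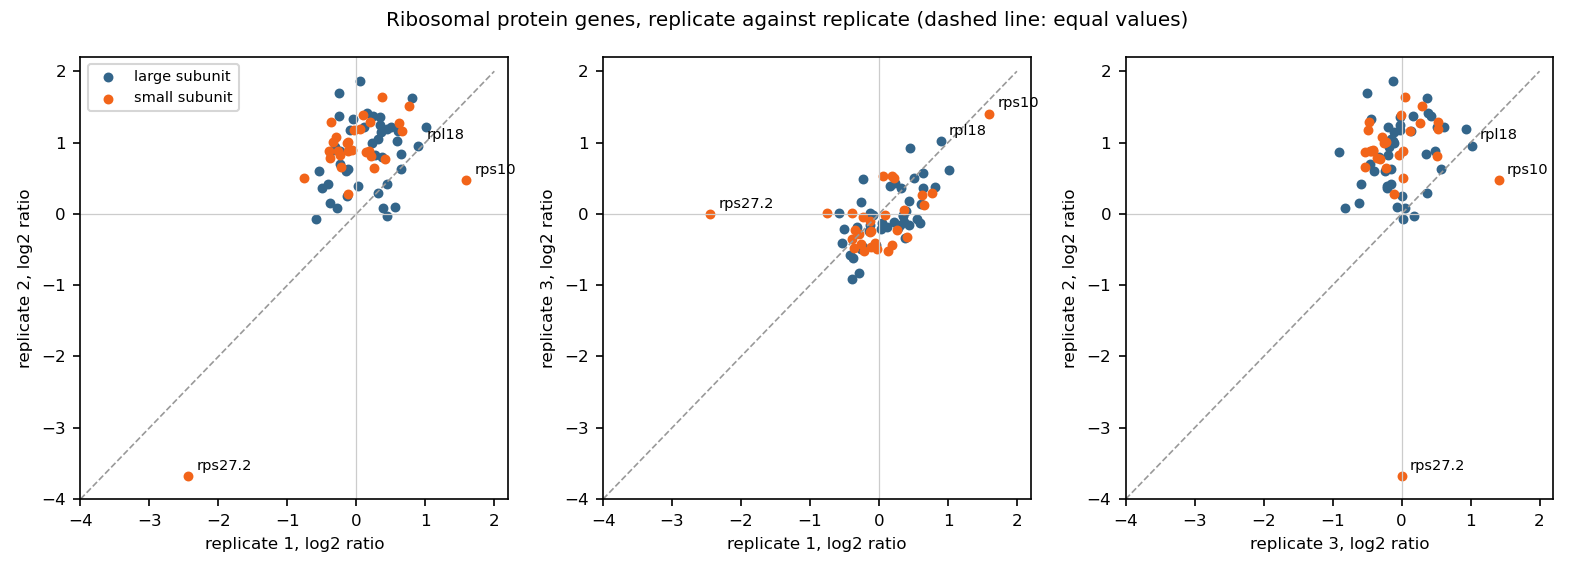
Log2 ratios of the 72 ribosomal protein genes in 1 replicate against another (both axes, sign as deposited), coloured by subunit, with a dashed line of equal values. Most points lie above the line where replicate 2 is on the y axis, rps10 lies below it, and rps27.2 lies far from the rest.

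Other genes of translation differed in how far they followed. The 5 measured ribosome partners were faua, which encodes a small subunit protein fused to a ubiquitin-like protein, rack1, a scaffold on the small subunit, naca and btf3 of the nascent peptide complex, and serbp1b, a binder of resting ribosomes. All 5 were highest in replicate 2, with medians of 0.07, 1.13 and -0.16 in replicates 1, 2 and 3. Of them faua read 0.07, 0.99 and -0.16, and rack1 0.17, 0.42 and -0.59. None had 1 sign in all samples.

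Ribosome assembly factors, which process ribosomal RNA and build the subunits in the nucleolus, had a median of -0.76, 0.13 and -0.20 over 61 measured genes. Replicate 2 held the highest value in 45 of them (73.8%, against 39.0% of all genes), so here too it lay above the others, but around a lower level. Negative in all samples were 18 (29.5%, against 23.1% of all genes) and positive 5 (8.20%, against 19.7%). None passed over all genes. At an unadjusted limma p of 0.05, 4 were positive (6.56%, against 7.67% of all genes) and 3 negative (4.92%, against 8.43%). The lowest mean was that of npm1a, nucleophosmin, at -2.33, -0.16 and -0.90, and the highest that of the helicase ddx21, at 1.11, 2.15 and 0.57. These and the genes named in the next paragraph were picked as the extremes of their lists after their values were seen.

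Translation factors had a median of -0.27, 0.29 and -0.12 over 59 genes, with 15 positive (25.4%, against 19.7% of all genes) and 16 negative (27.1%, against 23.1%) in all samples. Replicate 2 held the highest value in 32 of them (54.2%, against 39.0% of all genes). In limma 0 of the 59 passed the adjusted threshold. At an unadjusted p of 0.05, 5 were positive (8.47%, against 7.67%) and 8 negative (13.6%, against 8.43%). The highest mean was that of eif4ebp3l, of the family that holds back cap-dependent initiation, at 1.73, 2.40 and 0.89. The lowest adjusted p of the list was that of eef2k, for the kinase that inhibits elongation factor eEF2, at 1.84, 1.73 and 1.27 (1.62 ± 0.30, SD, n = 3; adjusted p = 0.116, limma). The lowest mean was that of eif4g2a, an initiation factor, at -1.23, -1.57 and -0.83. Mitochondrial ribosomal proteins, which serve the ribosome of the mitochondrion, had medians of -0.10, -0.12 and 0.03 over 52 genes, and replicate 2 was the highest in 36.5% of them, against 39.0% of all genes. Positive in all samples were 10 (19.2%) and negative 14 (26.9%), and 0 passed over all genes in limma. At an unadjusted p of 0.05, 1 was positive (1.92%) and 3 were negative (5.77%). Their extremes were mrpl12 (-2.43, -2.11 and -0.35) and mrpl32 (0.74, 1.17 and 0.86). The differences between these lists were not tested.

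**Figure D4:**
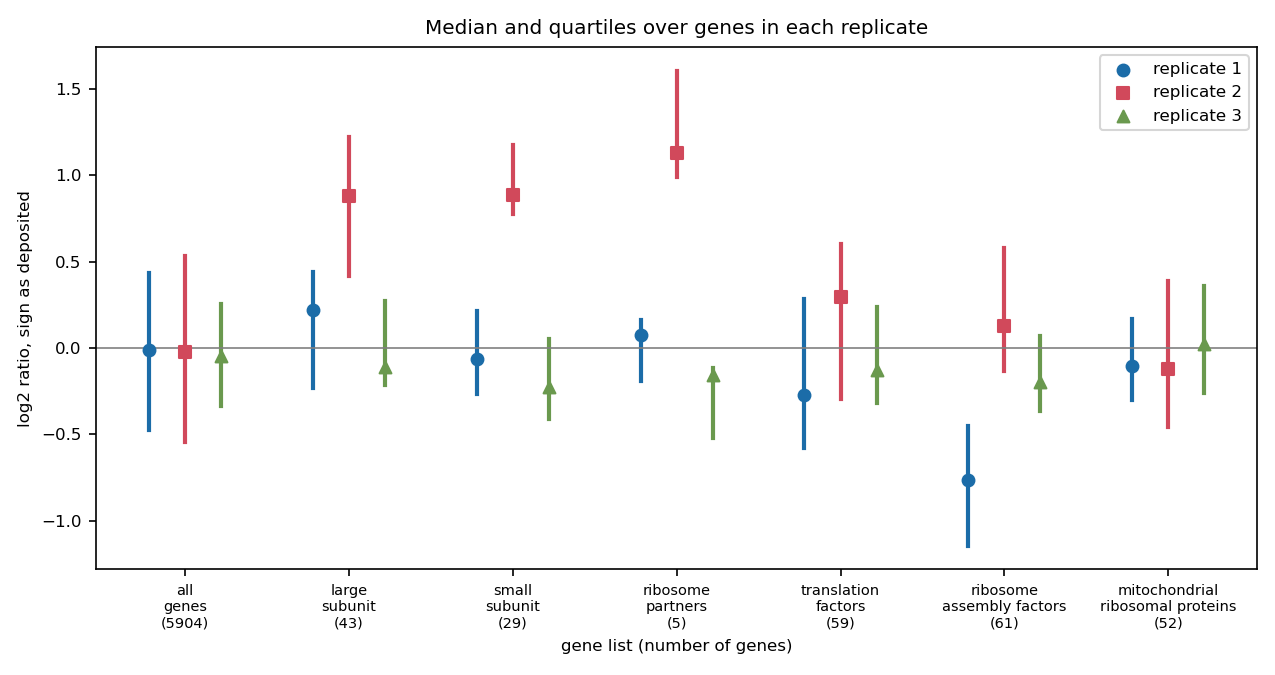
Median (symbol) and quartiles (line) of the log2 ratio (y axis, sign as deposited) over the genes of each list (x axis, number of genes in brackets) in replicates 1, 2 and 3. Replicate 2 lies at 0.88 and 0.89 for the large and small subunit and at -0.12 for mitochondrial ribosomal proteins, and replicate 1 at -0.76 for assembly factors.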

How the data were processed

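Two-channel array ratios of exposed against control embryos were taken from the authors' deposited table of log2 values, used as deposited. The log2 unit was inferred from the values, since the base is not given in the sources used here, nor are background correction, normalization, scanner or how dye-swapped hybridizations were combined. Without signal levels, precision is set by the 3 samples. Rows were paired with the platform's probe table by grid position, an inference made earlier from these data. Of 75 gene IDs among the ribosomal protein probes, 74 were found in the RefSeq table of assembly GRCz12tu with the same symbol; its coordinates are not printed, because the array files name no build. Control spots were not marked and stayed in counts of rows.

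A gene's value was the mean of its measured rows in each sample. Genes with a value in all 3 samples were fitted against 0 with an intercept alone (limma 3.58.1, R 4.3.3, functions lmFit and eBayes, 2-sided, with 2 residual and 4.58 prior degrees of freedom), with Benjamini-Hochberg adjustment over all 5904. The fit was tested on simulated data as a check of the code. How small a change it could find in 3 samples is not reported here. Lists are described by counts and medians. Genes, lists and rules were chosen with earlier results of these data known. By the rule, the text names members with 1 sign in all samples, the 5 highest and 5 lowest means of each subunit, the 5 widest ranges and 5 smallest p, stalk proteins, genes with 3 or more rows, paralog pairs and a partial list of genes linked to Diamond-Blackfan anaemia. Those named for other roles (rpl17, rpl39, rpl23, rpl23a, rps6, rps9, rps12, rps18, rps23, rpsa, rpl6, rpl27a, rps29, rps15a) were chosen after their values were seen. Alternatives were centring, scaling, quantile normalization, array weights, filters, the rows of a gene and each replicate left out.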

Additional observations from a re-analysis of the deposited data

How the results depend on the processing

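With 3 samples and 1 array ratio each, the number of samples limits every value, and the signal behind the ratios was not known. No ribosomal protein gene passed under median centring, equal scaling, quantile normalization, array weights or the ordinary statistic. The same held for either filter, the median over rows and single rows. With the row numbers as given 0 of 22 passed (against 8 of 4344 genes, 0.184%). That setting pairs genes with other spots, so its 0 says nothing of these genes. Over all genes equal scaling and array weights each called 40 of 5904 (0.678%) and quantile normalization 28 (0.474%), against 1 (0.0169%). Median centring and the median over rows called 1, and the filters 1 of 6781 and 2 of 5891. The ordinary statistic and single rows called 0 of all genes. With shares this low in each of these settings, a 0 among ribosomal protein genes does not set them apart. Leaving out 1 replicate gave 0 to 1 (1 without replicate 3, rps27.2 at -3.06, where 20 of 5963 genes passed), and 0 to 1 rows (1 without replicate 2, where 186 of 11852 passed). Genes with 1 sign in all samples were 20 in the reported fit. With 1 replicate left out, where fewer samples had to match, they were 25 to 47. Without replicate 2 they were 47, 21 positive and 26 negative, and without replicate 3 they were 40. Without replicates 1, 2 and 3 in turn these were 34.7%, 65.3% and 55.6% of ribosomal protein genes, against 59.0%, 66.8% and 60.0% of all genes. With the row numbers as given they were 9 of 22 (40.9%, against 44.2% of all genes). The 2 genes at 1.5-fold became 3 to 11 with 1 replicate left out (11 without replicate 3). They were 1 of 48 with single rows (2.08%, against 5.53% of all such genes) and 0 at 2-fold (against 1.32% of all genes). With replicates 1, 2 and 3 left out in turn the shares were 4.17%, 4.17% and 15.3%, against 9.08%, 12.3% and 15.5% of all genes. The difference of the subunit medians, 0.12, lay between 0.06 and 0.24 with 1 replicate left out and was -0.22 with the row numbers as given, which pair genes with other spots. The median of 0.26 lay between -0.04 (without replicate 2) and 0.51 (without replicate 3).

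Of 44 genes named by the rule, 17 changed sign with 1 replicate left out, 12 of them without replicate 2. None of these had passed. Their means with 1 replicate left out ran from -0.047 to 0.77 for rpl15, -0.50 to 0.00072 for rpl22, -0.65 to 0.24 for rpl22l1, -0.14 to 0.25 for rpl35, -0.38 to 0.72 for rpl36a, -0.19 to 0.23 for rpl5a, -0.36 to 0.077 for rpl7l1, -0.24 to 0.64 for rplp0, -0.041 to 0.95 for rplp2, -0.10 to 0.21 for rplp2b, -0.37 to 0.21 for rps16, -0.18 to 0.45 for rps19, -0.11 to 0.089 for rps2, -0.19 to 0.43 for rps24, -0.37 to 0.22 for rps25, -0.24 to 0.41 for rps27.1 and -0.37 to 0.26 for rps3. Under equal scaling and quantile normalization rps16 became -0.061 and -0.060, and rps2 -0.0072 and -0.0067. The cause was not tested. Centring on the median of all genes and using rows measured in all samples were added after seeing the data and changed no call. No paired analysis was possible because the samples form 1 group and the ratio in each is itself the comparison of exposed with control.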
